A study of Homo sapiens with 6 samples.

Results

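Small nucleolar RNA host genes are transcribed as long RNAs whose introns carry small nucleolar RNAs (snoRNAs). Members were every gene with a symbol of SNHG plus a number, together with GAS5, ZFAS1, EPB41L4A-AS1, CYTOR and DANCR. The rule found 34 genes of the 61498 in the files, 29 of them numbered SNHG genes. SNHG33 was found through its older symbol LINC00888 in RefSeq. The genes were measured by RNA-seq of total RNA depleted of ribosomal RNA, in 3 human cell lines without treatment and with 2 libraries each. RPMI-8226 is a myeloma line, NCI-BL2171 is labelled as B lymphocytes, and RPMI-8226-R was derived from RPMI-8226 as a line that resists the proteasome inhibitor bortezomib. The labels do not say if the 2 libraries per line stem from independent cultures: p-values weigh differences against library spread alone, and that spread may be technical.

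In the nucleus, snoRNAs guide the modification of ribosomal RNA: box C/D snoRNAs direct ribose methylation and box H/ACA snoRNAs direct pseudouridylation. Most are cut from the introns of a host after splicing. The spliced host RNA of many of these genes has only short reading frames and is known as a substrate of nonsense-mediated decay, a pathway that degrades RNAs whose translation ends early. Many hosts also begin with a cytosine followed by a run of pyrimidines, the terminal oligopyrimidine (TOP) motif shared with messenger RNAs of ribosomal proteins, whose translation follows mTOR activity.

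The 6 libraries held between 23952370 and 29052199 estimated reads. Marker levels went against 1 label. The summed level of 7 red cell lineage markers, all 7 of them above 0, was 49889 and 47886 TPM in the libraries labelled NCI-BL2171. It was 52.8 and 54.1 TPM in RPMI-8226 and 159 and 175 TPM in RPMI-8226-R, where 2 to 4 of the 7 were at 0. ALAS2 and GATA1 were at 0 in all 4 RPMI-8226 and RPMI-8226-R libraries. The 6 B cell markers summed to 4.41 and 2.71 TPM in the libraries labelled NCI-BL2171, with MS4A1 and PAX5 at 0. In RPMI-8226 they summed to 5445 and 5605 TPM, nearly all of it CD74, and in RPMI-8226-R to 134 and 140 TPM. The 6 plasma cell markers summed to between 1683 and 3681 TPM in the RPMI-8226 lines, with none at 0, and to 47.9 and 50.5 TPM in the libraries labelled NCI-BL2171, with JCHAIN, TNFRSF17 and IRF4 at 0. That group is therefore called the libraries labelled NCI-BL2171, and the part of these markers in the host gene differences was not tested. In bulk RNA, fewer cells of a type and less RNA per cell cannot be told apart.

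Positions are those of GENCODE 29 (GRCh38). A search by symbol and strand placed 141 snoRNA genes within 30 of the 34 members, 84 of them in SNHG14. It placed none in GAS5, CYTOR, SNHG27 and SNHG28, so the snoRNAs of GAS5 are not among the 141. The starts of 30 members were matched to RefSeq promoter windows of GRCh38.p14, each with 250 bases before and 50 bases after the annotated start. SNHG6, SNHG9, SNHG15 and SNHG25 were not matched. The sequences below show the last 45 bases before the start and the first 30 bases from it, read 5′ to 3′ on the strand of the gene. Capitals mark an unbroken run of C and T that begins at the start. By their RefSeq starts, the first 6 members have the TOP-like start defined below and the last 3 do not. They are shown because the first 6 were lower and the last 3 higher on counts in the resistant line. Members not shown break this split. SNHG26 has the TOP-like start and was higher. SNHG1, SNHG3, SNHG8, SNHG10, SNHG14, SNHG29, SNHG33, CYTOR and EPB41L4A-AS1 have another start and were lower. The sequences shown are therefore no measure of how start and direction go together.
ZFAS1, chr20:49278597-49278671, + strand: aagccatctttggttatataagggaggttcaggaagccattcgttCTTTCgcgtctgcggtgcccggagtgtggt
SNHG5, chr6:85678704-85678778, - strand: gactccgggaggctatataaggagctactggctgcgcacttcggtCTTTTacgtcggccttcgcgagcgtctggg
SNHG32, chr6:31834871-31834945, + strand: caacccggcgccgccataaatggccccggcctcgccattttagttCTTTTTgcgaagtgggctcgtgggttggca
SNHG19, chr16:2155329-2155403, - strand: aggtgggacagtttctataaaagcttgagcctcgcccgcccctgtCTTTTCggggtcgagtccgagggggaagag
SNHG12, chr1:28581844-28581918, - strand: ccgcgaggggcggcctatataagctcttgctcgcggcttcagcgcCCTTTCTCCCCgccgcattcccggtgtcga
SNHG7, chr9:136728155-136728229, - strand: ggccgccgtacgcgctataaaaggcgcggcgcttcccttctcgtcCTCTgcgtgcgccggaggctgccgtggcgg
SNHG17, chr20:38435299-38435373, - strand: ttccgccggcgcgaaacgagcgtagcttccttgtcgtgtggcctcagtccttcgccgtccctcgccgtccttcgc
DANCR, chr4:52712349-52712423, + strand: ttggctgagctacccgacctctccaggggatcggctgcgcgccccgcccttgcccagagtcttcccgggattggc
SNHG16, chr17:76557719-76557793, + strand: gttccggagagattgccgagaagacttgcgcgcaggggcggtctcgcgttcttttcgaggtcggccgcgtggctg

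A start base C followed by at least 3 more C or T was found at 9 of the 30 members (30%), at 5.45% of 35116 RefSeq starts and at 61.5% of 78 starts of ribosomal protein genes. The letters TATAA, the core of a TATA box, lay 40 to 21 bases before the start on the same strand in 6 of 30 members (20%), in 3.77% of all starts and in 8.97% of ribosomal protein starts. On the other strand, TATAA was found in 3.33% of members and 1.59% of all starts. CACGTG, the E-box bound by MYC and related factors, occurred on either strand of the 300 bases in 6.67% of members and 7.26% of all starts. These searches were chosen with the fold changes of these data known, and a match is only a description of the letters. Among the 34 members, 18 have at least 1 GENCODE 29 transcript that begins with a C followed by at least 3 more C or T. RefSeq gives GAS5 and SNHG29 a start without such a run. Of the GENCODE 29 transcripts, 6 of 29 for GAS5 and 6 of 30 for SNHG29 do begin with one. The first 30 bases of 1 such transcript of each show the same opening letters, which is why they are given.
GAS5, transcript GAS5-219: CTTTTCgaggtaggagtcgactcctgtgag
SNHG29, transcript LRRC75A-AS1-228: CTTTTCattcccgttgttatggaggtaggc

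Together, the 34 host genes took a smaller share of the reads in the resistant line than in its parent. They held 0.360% and 0.370% of the estimated reads in the libraries labelled NCI-BL2171, 0.172% and 0.175% in RPMI-8226 and 0.1002% and 0.111% in RPMI-8226-R. Their summed level was 5702 and 5776 TPM, 1997 and 2054 TPM, and 1433 and 1508 TPM in the same order. A few genes made up most of it. SNHG29 was the highest member in every library and SNHG5 the second. The 4 highest members held 71.2% and 71.0% of the summed TPM in the libraries labelled NCI-BL2171, where SNHG32 and SNHG6 followed. In the RPMI-8226 lines the 4 highest held between 48.8% and 50.9%. SNHG1 and SNHG6 completed them in RPMI-8226, and SNHG17 and SNHG1 in RPMI-8226-R. Between 28 and 29 members reached 1 TPM in a library. The mean reached 20 TPM in at least 1 line for 21 members.

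**Figure D1:**
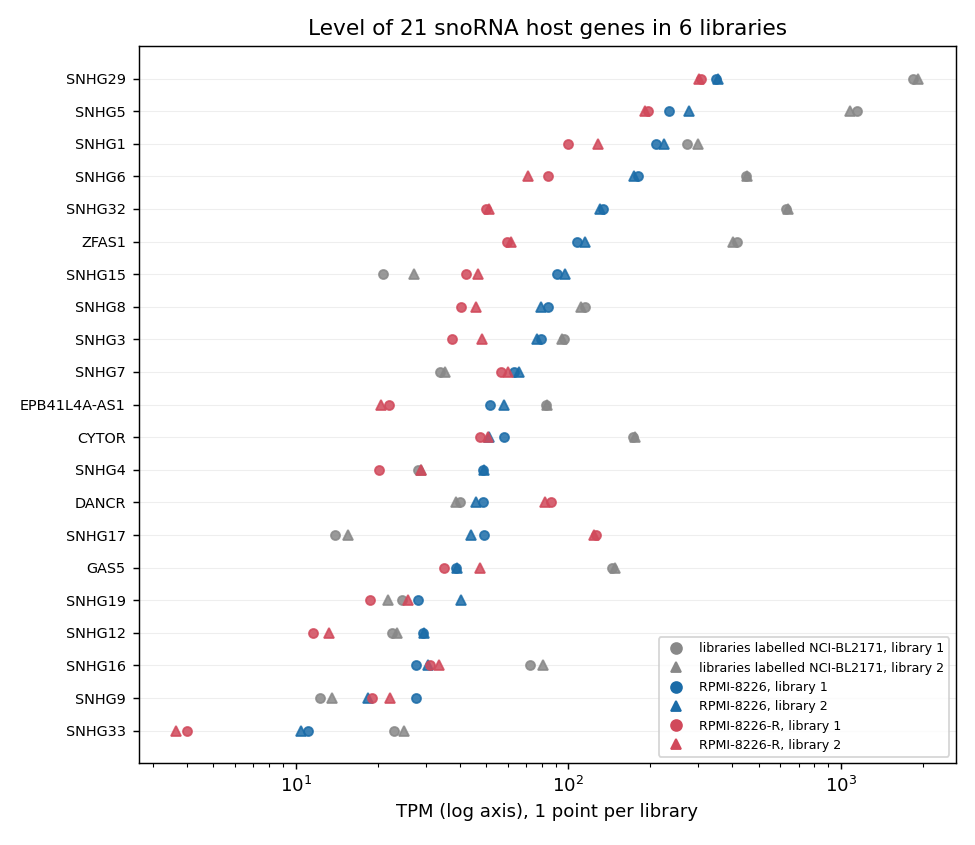
Level of the 21 members whose mean reached 20 TPM in at least 1 line, on a log axis in TPM, with 1 point per library; colour gives the line and shape the library number. SNHG29 and SNHG5 lie highest in all 6 libraries, and SNHG17 and DANCR are the members here whose RPMI-8226-R points lie well above both RPMI-8226 points.

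The first comparison set the bortezomib-resistant derivative against its parent. Of the 32 members tested, 19 were lower and 4 higher in the resistant line, and 9 did not pass the threshold. Over all 20081 genes tested, edgeR's quasi-likelihood test with Benjamini-Hochberg adjustment at 0.05 called 65.6%, with 28.5% higher and 37.2% lower. The members' median log2 fold change was -0.69, beside -0.12 for all genes. These fold changes rest on counts scaled by TMM, which are not corrected for length. TPM values are, but no TMM scaling was applied to them. On the log2(TPM + 1) scale all genes shifted up by a median of 0.36, the members' median was -0.18, and 2 members were called higher and 14 lower by limma. With TMM kept and an offset for effective length in edgeR, all genes shifted by only 0.05 and the members' median was -0.51. Calls and sizes therefore depend on the scale, for changes near 0 and for some larger ones. SNHG5 was at -1.05 on counts and -0.39 on the log2(TPM + 1) scale, and SNHG17 at 0.95 and 1.41.

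**Figure D2:**
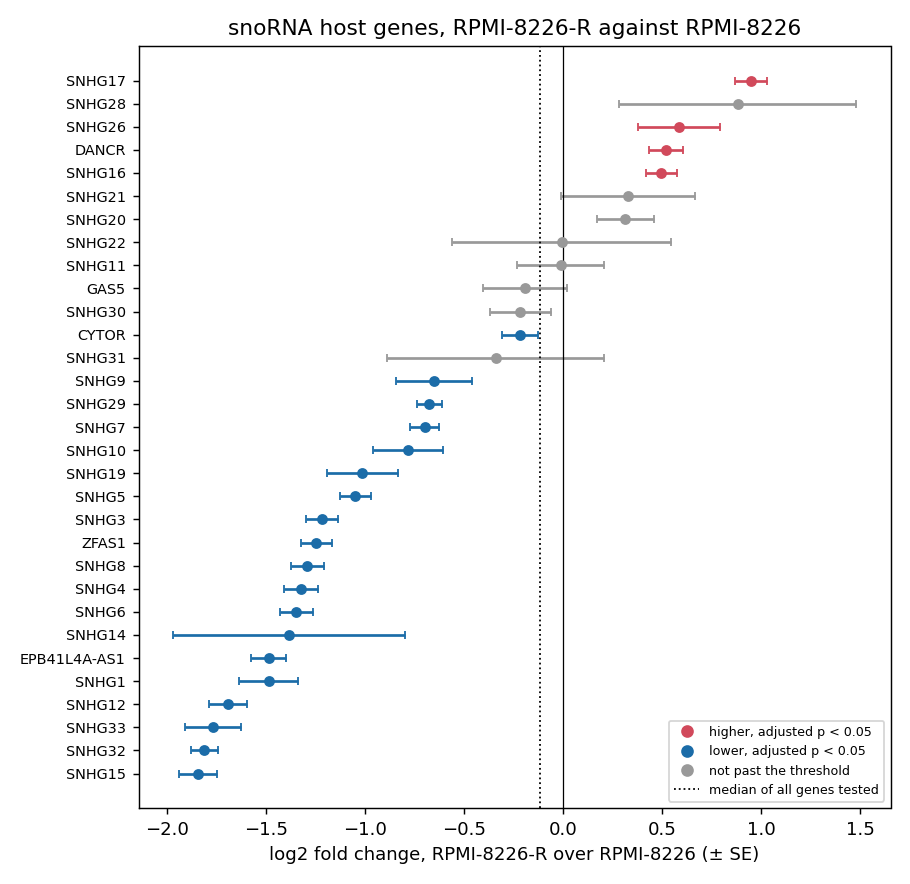
Log2 fold change of the members tested in RPMI-8226-R over RPMI-8226 (x axis, edgeR on TMM-scaled counts), with bars of 1 SE; SNHG27, without counts in both lines, is left out. Most points lie to the left of 0, from -1.85 for SNHG15 upwards, and 4 coloured points lie to the right.

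SNHG29, SNHG5 and SNHG6 were lower in RPMI-8226-R on counts. SNHG29 (chr17:16438822-16478678, + strand), host of the box C/D snoRNAs SNORD49A, SNORD49B and SNORD65, stood at 1837 and 1925 TPM in the libraries labelled NCI-BL2171, 349.9 and 355 TPM in RPMI-8226 and 307 and 302 TPM in RPMI-8226-R. Its RPMI-8226-R libraries lay below both parental ones (log2 fold change -0.68 ± 0.06, edgeR adjusted p = 4.1e-09; -0.21 on the log2(TPM + 1) scale). SNHG5 (chr6:85660950-85678748, - strand), host of SNORD50B, stood at 1144 and 1084 TPM in the libraries labelled NCI-BL2171, 234 and 277 TPM in RPMI-8226 and 196 and 191 TPM in RPMI-8226-R. The lines did not overlap, and the change between the RPMI-8226 lines was smaller in TPM (-0.39) than in counts (log2 fold change -1.05 ± 0.08, edgeR adjusted p = 1.88e-10). SNHG6, host of SNORD87 on chromosome 8, stood at 447 and 453 TPM in the libraries labelled NCI-BL2171, 181 and 175 TPM in RPMI-8226 and 84.4 and 71.3 TPM in RPMI-8226-R. It was lower in both resistant libraries (log2 fold change -1.35 ± 0.08, edgeR adjusted p = 8.39e-12).

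Among the hosts of several box C/D snoRNAs, SNHG1 (chr11:62851988-62855914, - strand), which carries SNORD22 and SNORD25 to SNORD28, stood at 273 and 299 TPM in the libraries labelled NCI-BL2171, 211 and 225 TPM in RPMI-8226 and 99.98 and 128 TPM in RPMI-8226-R. RPMI-8226 and the libraries labelled NCI-BL2171 did not pass against each other on counts, and RPMI-8226-R was lower than its parent (log2 fold change -1.49 ± 0.15, edgeR adjusted p = 0.000226). SNHG32 (chr6:31834608-31839766, + strand), host of SNORD48 and SNORD52, stood at 631 and 639 TPM in the libraries labelled NCI-BL2171, 134 and 131 TPM in RPMI-8226 and 49.9 and 51.2 TPM in RPMI-8226-R. It stepped down from group to group with no overlap (log2 fold change -1.81 ± 0.07, edgeR adjusted p = 2.29e-15 for RPMI-8226-R against RPMI-8226). ZFAS1 (chr20:49278178-49295738, + strand), an antisense host of the SNORD12 family, stood at 417 and 403 TPM in the libraries labelled NCI-BL2171, 108 and 115 TPM in RPMI-8226 and 59.6 and 61.8 TPM in RPMI-8226-R. The order of the groups was the same as for SNHG32, and the resistant libraries were again lowest (log2 fold change -1.25 ± 0.08, edgeR adjusted p = 1.53e-11). SNHG19 (chr16:2154797-2155358, - strand), host of SNORD60, stood at 24.6 and 21.9 TPM in the libraries labelled NCI-BL2171, 28.1 and 40.6 TPM in RPMI-8226 and 18.8 and 25.95 TPM in RPMI-8226-R. Its parental libraries differed more from each other than those of most members, and the line difference was log2 fold change -1.02 ± 0.18, edgeR adjusted p = 9.39e-05; on the TPM scale it did not pass (limma adjusted p = 0.0571).

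GAS5 (chr1:173863900-173868882, - strand), the growth arrest-specific host of a series of box C/D snoRNAs, did not pass between the RPMI-8226 lines. It stood at 144 and 148 TPM in the libraries labelled NCI-BL2171, 38.8 and 39.04 TPM in RPMI-8226 and 35.1 and 47.5 TPM in RPMI-8226-R. The second resistant library lay above both parental libraries and the first below them, and the difference was within their spread (log2 fold change -0.19 ± 0.21, edgeR adjusted p = 0.48). Without RPMI-8226-R replicate 2 the value was -0.50, with an edgeR adjusted p of 3.53e-06.

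Hosts of box H/ACA snoRNAs were mostly lower as well. SNHG3 (chr1:28505980-28510892, + strand), host of SNORA73A and SNORA73B, stood at 96.5 and 95.1 TPM in the libraries labelled NCI-BL2171, 79.8 and 76.8 TPM in RPMI-8226 and 37.5 and 48.3 TPM in RPMI-8226-R. Both resistant libraries were below the parental ones (log2 fold change -1.22 ± 0.08, edgeR adjusted p = 8.84e-11). SNHG8 (chr4:118278709-118279823, + strand), host of SNORA24, stood at 115 and 111 TPM in the libraries labelled NCI-BL2171, 84.4 and 79.3 TPM in RPMI-8226 and 40.6 and 45.8 TPM in RPMI-8226-R. Its decrease was of similar size (log2 fold change -1.29 ± 0.08, edgeR adjusted p = 1.56e-11). SNHG4 (chr5:139274102-139284899, + strand), host of SNORA74A, stood at 28.1 and 28.8 TPM in the libraries labelled NCI-BL2171, 48.7 and 48.99 TPM in RPMI-8226 and 20.2 and 28.8 TPM in RPMI-8226-R. RPMI-8226 was the highest of the 3 groups, and RPMI-8226-R lay near the libraries labelled NCI-BL2171 (log2 fold change -1.33 ± 0.09, edgeR adjusted p = 1.89e-11 against the parent).

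SNHG12 (chr1:28578538-28583132, - strand), which carries SNORA44, SNORA61 and SNORD99, stood at 22.6 and 23.5 TPM in the libraries labelled NCI-BL2171, 29.4 and 29.6 TPM in RPMI-8226 and 11.5 and 13.2 TPM in RPMI-8226-R. The resistant libraries were lowest (log2 fold change -1.69 ± 0.10, edgeR adjusted p = 1.9e-12). SNHG15 (chr7:44983023-44986961, - strand), host of SNORA9, stood at 21.02 and 27.2 TPM in the libraries labelled NCI-BL2171, 91.2 and 97.4 TPM in RPMI-8226 and 42.2 and 46.6 TPM in RPMI-8226-R. Its fall from the parent was the largest of all members tested on counts (log2 fold change -1.85 ± 0.10, edgeR adjusted p = 5.85e-11), and it was -1.07 on the log2(TPM + 1) scale. EPB41L4A-AS1 (chr5:112160526-112164276, + strand), host of SNORA13, stood at 82.6 and 83.5 TPM in the libraries labelled NCI-BL2171, 51.6 and 58.4 TPM in RPMI-8226 and 22.1 and 20.6 TPM in RPMI-8226-R. The groups did not overlap (log2 fold change -1.49 ± 0.09, edgeR adjusted p = 4.94e-12). SNHG33 (chr3:183447608-183456013, + strand), annotated as a transcribed pseudogene that holds SNORA63D and SNORA63E, stood at 22.9 and 25.01 TPM in the libraries labelled NCI-BL2171, 11.1 and 10.5 TPM in RPMI-8226 and 4.01 and 3.63 TPM in RPMI-8226-R. It followed the same order (log2 fold change -1.77 ± 0.14, edgeR adjusted p = 5.44e-10).

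Lower values of smaller size were found for SNHG7 and SNHG9. SNHG7 (chr9:136721366-136728184, - strand), host of SNORA17A and SNORA17B, stood at 33.9 and 35.2 TPM in the libraries labelled NCI-BL2171, 63.1 and 66.1 TPM in RPMI-8226 and 56.9 and 59.9 TPM in RPMI-8226-R. On counts RPMI-8226-R was lower (log2 fold change -0.70 ± 0.07, edgeR adjusted p = 4.21e-08), while in TPM the difference did not pass (-0.14, limma adjusted p = 0.124). SNHG9 (chr16:1964959-1965509, + strand), host of SNORA78, stood at 12.3 and 13.6 TPM in the libraries labelled NCI-BL2171, 27.7 and 18.4 TPM in RPMI-8226 and 19.01 and 22.1 TPM in RPMI-8226-R. The TPM values of the RPMI-8226 lines overlapped. The count test passed (log2 fold change -0.65 ± 0.19, edgeR adjusted p = 0.00501), and did not without RPMI-8226 replicate 1 (-0.38, edgeR adjusted p = 0.174).

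The higher members were few. SNHG17 (chr20:38420588-38435353, - strand), host of the SNORA71 family, stood at 14.01 and 15.6 TPM in the libraries labelled NCI-BL2171, 49.2 and 43.9 TPM in RPMI-8226 and 127 and 125 TPM in RPMI-8226-R. It was the member with the largest rise in the resistant line (log2 fold change 0.95 ± 0.08, edgeR adjusted p = 1.41e-09; 1.41 on the log2(TPM + 1) scale). DANCR (chr4:52712404-52720351, + strand), host of SNORA26 and named for its part in keeping progenitors undifferentiated, stood at 40.1 and 38.9 TPM in the libraries labelled NCI-BL2171, 48.7 and 45.9 TPM in RPMI-8226 and 86.6 and 82.2 TPM in RPMI-8226-R. Both resistant libraries lay above the other 4 (log2 fold change 0.52 ± 0.09, edgeR adjusted p = 1.85e-05; 0.82 on the log2(TPM + 1) scale). These 2 genes were the ones called higher on the TPM scale too.

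SNHG16 (chr17:76557766-76565348, + strand), host of SNORD1A to SNORD1C, stood at 72.1 and 80.8 TPM in the libraries labelled NCI-BL2171, 27.7 and 30.6 TPM in RPMI-8226 and 31.1 and 33.7 TPM in RPMI-8226-R. The count test gave a rise in RPMI-8226-R (log2 fold change 0.50 ± 0.08, edgeR adjusted p = 7.5e-06). In TPM the lines were close (0.15, limma adjusted p = 0.229), and with an offset for effective length the sign turned (-0.18, edgeR adjusted p = 0.133). SNHG26, host of SNORD93, had between 104 and 107 counts in RPMI-8226 and 138 and 202 in RPMI-8226-R (log2 fold change 0.58 ± 0.21, edgeR adjusted p = 0.0176). That call was lost without RPMI-8226 replicate 1 (adjusted p = 0.0799), RPMI-8226 replicate 2 (0.058) or RPMI-8226-R replicate 2 (0.221).

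CYTOR (chr2:87454781-87636740, + strand), a cytoskeleton regulator RNA, is a near copy of MIR4435-2HG elsewhere on chromosome 2, and the division of reads between them is uncertain. CYTOR stood at 173 and 176 TPM in the libraries labelled NCI-BL2171, 58.3 and 51.2 TPM in RPMI-8226 and 47.4 and 50.8 TPM in RPMI-8226-R. Its small decrease in the resistant line (log2 fold change -0.22 ± 0.09, edgeR adjusted p = 0.0377) was past the threshold only narrowly, and leaving out any library other than RPMI-8226 replicate 2 ended the call (adjusted p from 0.0529 to 0.537). The sum of both copies was 186 and 188 CPM in the libraries labelled NCI-BL2171, 124 and 119 CPM in RPMI-8226 and 116 and 116 CPM in RPMI-8226-R. CYTOR took 48.1% and 47.4% of that sum in the first group, 26.5% and 23.4% in the second and 22.2% and 22.7% in the third. MIR4435-2HG alone did not pass between the RPMI-8226 lines (log2 fold change -0.02 ± 0.07, edgeR adjusted p = 0.869).

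The other 12 members were low. SNHG10, host of SCARNA13, was lower in the resistant line (log2 fold change -0.79 ± 0.18, edgeR adjusted p = 0.000771), with 319 counts in each parental library and 144 and 254 in RPMI-8226-R; the test did not pass on the TPM scale (limma adjusted p = 0.188). SNHG14, the imprinted host of clustered SNORD genes on chromosome 15, had 20 and 22 counts in RPMI-8226, 10 and 7 in RPMI-8226-R and 0 and 1 in the libraries labelled NCI-BL2171. Its call between the RPMI-8226 lines (edgeR adjusted p = 0.0434) was lost on leaving out any 1 of the 6 libraries (0.0688 to 0.259). SNHG11, SNHG20, SNHG21, SNHG22, SNHG28, SNHG30 and SNHG31 did not pass, with log2 fold changes from -0.34 to 0.88. SNHG20 did pass without RPMI-8226 replicate 2 (0.46, adjusted p = 0.0348) or RPMI-8226-R replicate 1 (0.47, adjusted p = 0.00597), and SNHG28 without RPMI-8226 replicate 2 (2.50, adjusted p = 0.0215). SNHG27 had 12 and 18 counts in the libraries labelled NCI-BL2171 and none in the other 4 libraries. SNHG18 and SNHG25 were too low to test.

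Members were set beside their start sequences. Of the 8 tested members whose RefSeq start is a C followed by at least 3 more C or T, 7 were lower and 1 (SNHG26) was higher in RPMI-8226-R, with a median log2 fold change of -1.15. Of the 21 tested members with another RefSeq start, 9 were lower, 3 higher and 9 not past the threshold, with a median of -0.22. SNHG6, SNHG9 and SNHG15 were lower too, but had no matched start and stand in neither group. Of their GENCODE 29 transcripts, 3 of 5, 0 of 2 and 0 of 10 begin with such a run. All 6 tested members with TATAA before the start were lower. Of these, only SNHG8 lacks the run of C and T, so nearly all are counted above as well. Over all genes tested, 37.2% were lower and 28.5% higher, and the share of lower members with another start was near that. Of the 9 not past the threshold, however, all but GAS5 stayed below a mean of 20 TPM in every line. SNHG27 among them had no counts in either line. Their low counts make a call less likely. GAS5, SNHG29, SNHG16, SNHG3, SNHG8, SNHG1, CYTOR, SNHG11 and SNHG14 are counted among those without the run. At least 1 GENCODE 29 transcript of each does begin with one, with 2 of 8 for SNHG16, which was higher. Conversely, SNHG26 and SNHG32 are counted with the run, and 0 of 3 and 0 of 11 of their transcripts begin with one. No test was made of these groups, since they were defined with the fold changes known.

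Gene lists that bear on how host genes are made and degraded were counted in the same comparison. Some of these genes have pseudogene copies that can share their reads, SMG1, EEF1A1, NPM1 and ribosomal protein genes among them. Of 79 ribosomal protein genes, whose mRNAs carry the TOP motif, 78 were lower and 0 higher by edgeR (0 at an unadjusted p under 0.05, 0 by DESeq2, 0 by limma-voom and 1 by limma on TPM), with a median of -0.75 (-0.37 on the log2(TPM + 1) scale). RPL11 stood at 2403 and 2245 TPM in RPMI-8226 and 1264 and 1219.6 TPM in RPMI-8226-R (log2 fold change -1.29 ± 0.07, edgeR adjusted p = 5.02e-13). Of 18 translation factors and related TOP mRNAs, 14 were lower and 1 higher, with a median of -0.40. On the log2(TPM + 1) scale that median was -0.03, with 7 lower and 6 higher. EEF1A1, the elongation factor that delivers aminoacyl-tRNA, stood at 3912 and 3847 TPM in RPMI-8226 and 3022 and 3092 TPM in RPMI-8226-R (log2 fold change -0.70 ± 0.06, edgeR adjusted p = 3.09e-09). NPM1, a nucleolar chaperone, was the higher one (log2 fold change 0.29 ± 0.07, edgeR adjusted p = 0.000733).

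Protein-coding hosts of snoRNAs went mostly the other way. Of 28 tested, 21 were higher and 5 lower, with a median of 0.55 (0.90 on the log2(TPM + 1) scale). WDR43, a ribosome assembly factor, stood at 7.55 and 6.09 TPM in RPMI-8226 and 40.6 and 37.5 TPM in RPMI-8226-R (log2 fold change 2.20 ± 0.08, edgeR adjusted p = 1.66e-15). PPAN, another assembly factor of the large subunit, stood at 13.9 and 11.6 TPM in RPMI-8226 and 69.8 and 62.2 TPM in RPMI-8226-R (log2 fold change 2.03 ± 0.10, edgeR adjusted p = 3.25e-13). EIF4A2, a translation initiation helicase, was among those lower, with 286 and 291 TPM in RPMI-8226 and 127 and 148 TPM in RPMI-8226-R (log2 fold change -1.45 ± 0.07, edgeR adjusted p = 2.44e-13). EEF2 and TPT1, which are TOP mRNAs as well as hosts and stand in both lists, were lower at -0.74 and -0.69 on the log2 scale.

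Genes for the proteins that snoRNAs assemble with were higher or not past the threshold. Of 20 genes for core snoRNP proteins and their assembly, 13 were higher and 0 lower by edgeR (0 at an unadjusted p under 0.05, and 0 by DESeq2 and by limma-voom), with a median of 0.70. Without RPMI-8226-R replicate 1, 2 passed as lower, and 3 did with protein-coding genes and members only or with upper-quartile scaling. NOP58, a core protein of box C/D particles, stood at 25.4 and 24.2 TPM in RPMI-8226 and 91.1 and 90.97 TPM in RPMI-8226-R (log2 fold change 1.51 ± 0.08, edgeR adjusted p = 6.68e-13). DKC1, the pseudouridine synthase of box H/ACA particles, stood at 36.8 and 36.9 TPM in RPMI-8226 and 130.4 and 144 TPM in RPMI-8226-R (log2 fold change 1.32 ± 0.06, edgeR adjusted p = 1.35e-13). NOLC1 and NAF1, which assist assembly, were higher at 1.42 and 1.33. FBL, the methyltransferase of box C/D particles, did not pass on counts (log2 fold change -0.11 ± 0.06, edgeR adjusted p = 0.12) and was higher on the log2(TPM + 1) scale (0.23, limma adjusted p = 0.00351). NOP58, DKC1 and 1 other gene of this list are also protein-coding hosts.

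**Figure D3:**
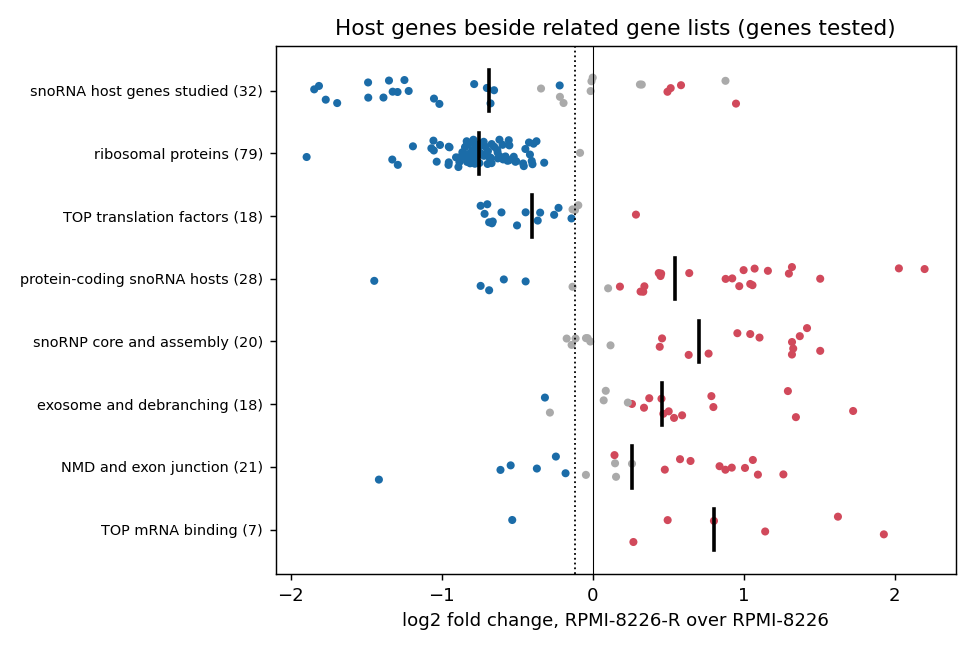
Log2 fold change in RPMI-8226-R over RPMI-8226 (x axis) for each tested gene of 8 lists, 1 point per gene, the number of genes in brackets; red and blue mark genes past the threshold, black bars the list medians and the dotted line the median of all genes tested. Host genes, ribosomal proteins and TOP translation factors lie mostly left of 0, protein-coding hosts and snoRNP genes mostly right.

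RNA decay genes were mixed. Of 21 genes of nonsense-mediated decay and the exon junction complex, 11 were higher and 6 lower (2 lower on the log2(TPM + 1) scale). UPF1, the central helicase of the pathway, was lower on counts (log2 fold change -0.54 ± 0.06, edgeR adjusted p = 2.27e-07) and did not pass on the log2(TPM + 1) scale (-0.19, limma adjusted p = 0.194). SMG1, the kinase of UPF1, was higher (log2 fold change 0.58 ± 0.09, edgeR adjusted p = 2.3e-05), as was GSPT1, a translation termination factor (log2 fold change 1.26 ± 0.06, edgeR adjusted p = 2.05e-13). PNRC2, which links UPF1 to decapping, stood at 126 and 131 TPM in RPMI-8226 and 62.2 and 61.6 TPM in RPMI-8226-R (log2 fold change -1.42 ± 0.07, edgeR adjusted p = 1.38e-13). Of 18 genes of the nuclear RNA exosome and of intron debranching, 13 were higher and 1 (DIS3) lower. Without RPMI-8226-R replicate 2, 2 were lower, and on the log2(TPM + 1) scale 0 were and DIS3 had 0.059. EXOSC4 had the largest rise (log2 fold change 1.73 ± 0.12, edgeR adjusted p = 5.68e-11). Of 7 TOP mRNA-binding proteins, 6 were higher and 1 lower. LARP1, which binds the TOP motif, stood at 16.8 and 26.6 TPM in RPMI-8226 and 74.7 and 102 TPM in RPMI-8226-R (log2 fold change 1.62 ± 0.07, edgeR adjusted p = 1.96e-14), and CNBP was the lower one (log2 fold change -0.53 ± 0.06, edgeR adjusted p = 1.78e-07).

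Other abundant noncoding RNAs served as controls and did not all share a direction. NORAD (log2 fold change 1.08 ± 0.07, edgeR adjusted p = 1.22e-11) and OIP5-AS1 (log2 fold change 0.50 ± 0.08, edgeR adjusted p = 6.84e-06) were higher. MALAT1 was lower (log2 fold change -1.09 ± 0.13, edgeR adjusted p = 0.000189), and its call was lost without RPMI-8226-R replicate 1 (adjusted p = 0.0556). NEAT1 did not pass by edgeR with all libraries (log2 fold change 0.76 ± 0.34, edgeR adjusted p = 0.146) and differed between the resistant libraries, with 153 and 149 TPM in RPMI-8226 and 226 and 417 TPM in RPMI-8226-R. It passed as higher without RPMI-8226-R replicate 1 (1.12, edgeR adjusted p = 3.55e-15) or replicate 2 (0.30, edgeR adjusted p = 0.00136), by DESeq2 (0.80, adjusted p = 0.0352), on the log2(TPM + 1) scale (1.01, limma adjusted p = 0.0189) and with the length offset (0.75, edgeR adjusted p = 0.0121).

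Several members share a promoter region or overlap with a protein-coding gene. The labels do not say whether counting used strand, so that reads of overlapping partners cannot be told apart. Within 2000 bases on the opposite strand, SLC3A2, an amino acid transporter subunit that starts 188 bases from SNHG1, stood at 521 and 556 CPM in RPMI-8226 and 186 and 183 CPM in RPMI-8226-R (log2 fold change -1.55 ± 0.06, edgeR adjusted p = 8.87e-15). It was lower with SNHG1. RPS2, whose start lies 99 bases from that of SNHG9, stood at 1586 and 1633 CPM in RPMI-8226 and 1126 and 1039.7 CPM in RPMI-8226-R (log2 fold change -0.57 ± 0.06, edgeR adjusted p = 5.92e-08). TRAF7, which starts 340 bases from SNHG19, stood at 168 and 169 CPM in RPMI-8226 and 129 and 135 CPM in RPMI-8226-R (log2 fold change -0.36 ± 0.07, edgeR adjusted p = 7.39e-05); its sign turned on the log2(TPM + 1) scale (0.19, limma adjusted p = 0.283).

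Overlapping partners differed in direction. SIL1, an endoplasmic reticulum exchange factor on the strand opposite to SNHG4, stood at 172 and 174 CPM in RPMI-8226 and 31.2 and 29.3 CPM in RPMI-8226-R (log2 fold change -2.52 ± 0.08, edgeR adjusted p = 7.21e-17). MATR3, on the strand of SNHG4, was also lower (-1.26, edgeR adjusted p = 0.00277), and its call was lost without RPMI-8226-R replicate 1 (0.0970) or 2 (0.0706). DIPK1B, opposite to SNHG7, stood at 30.6 and 31.8 CPM in RPMI-8226 and 20.3 and 20.4 CPM in RPMI-8226-R (log2 fold change -0.62 ± 0.10, edgeR adjusted p = 9.98e-06). By contrast, RCC1, whose annotated start lies 37 bases from that of SNHG3 on the same strand, stood at 87.2 and 89.3 CPM in RPMI-8226 and 125 and 114 CPM in RPMI-8226-R (log2 fold change 0.44 ± 0.07, edgeR adjusted p = 1.58e-05). ZNFX1, opposite to ZFAS1 with starts 248 bases apart, stood at 6.92 and 8.62 CPM in RPMI-8226 and 13.8 and 15.7 CPM in RPMI-8226-R (log2 fold change 0.93 ± 0.15, edgeR adjusted p = 1.12e-05). Both were higher while the host gene was lower. TRNAU1AP, opposite to SNHG12, did not pass on counts (0.04, edgeR adjusted p = 0.810) while SNHG12 was lower. On the log2(TPM + 1) scale TRNAU1AP passed as higher (0.29, limma adjusted p = 0.0378). ZBTB37, opposite to GAS5, did not pass either by edgeR (0.59, adjusted p = 0.172) or on the log2(TPM + 1) scale (0.35, limma adjusted p = 0.0679). It passed as higher by DESeq2 (0.63, adjusted p = 0.0430) and with the length offset (0.62, edgeR adjusted p = 0.0485). The same held without the filter on low counts and with a replicate block. Of the other divergent pairs, named here after their values were seen, BARD1 beside SNHG31 was higher (0.28, edgeR adjusted p = 0.0161) and ACAA2 beside SNHG22 lower (-0.53, edgeR adjusted p = 7.41e-07), while SNHG31 and SNHG22 did not pass. SEMA5A beside the untested SNHG18 did not pass (-0.17, edgeR adjusted p = 0.807).

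**Figure D4:**
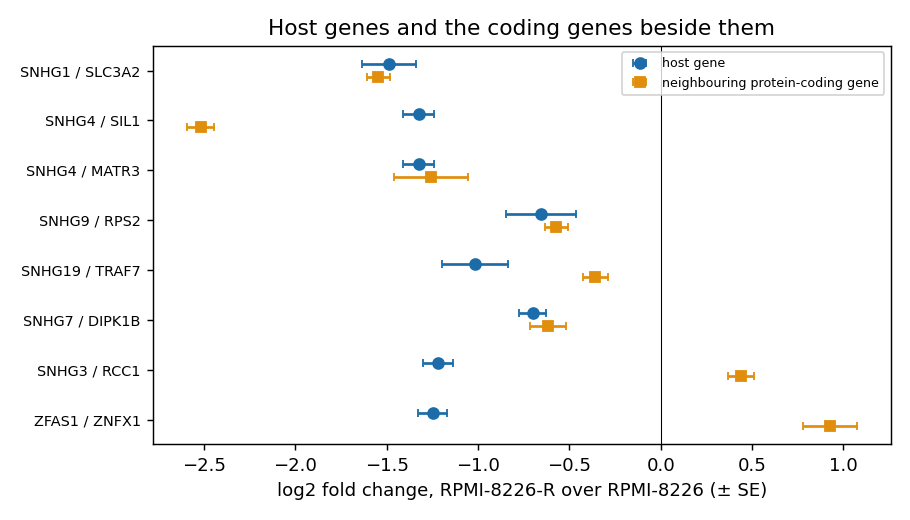
Log2 fold change in RPMI-8226-R over RPMI-8226 (x axis) of members and of the protein-coding gene that overlaps them or starts beside them, with bars of 1 SE. In the first 6 pairs both genes are lower, and in the pairs with RCC1 and ZNFX1 the 2 genes lie on opposite sides of 0.

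The mature snoRNAs themselves were hardly measured. Of the 141 nested snoRNA genes, with a median length of 83 bases, 130 had no count in any library and 11 had at least 1. SNORA73B in SNHG3 was the only one tested, with 10 and 23 counts in the libraries labelled NCI-BL2171, 12 and 7 in RPMI-8226 and 4 and 8 in RPMI-8226-R. SNORA71B in SNHG17 had at most 7 counts in a library. The next by mean level, SNORA13, SNORA50C and SNORA71D, had at most 5.53 estimated counts. Levels of snoRNAs below 3 counts in a library were taken as too low to read. That floor was set and not measured.

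The comparison of RPMI-8226 with the libraries labelled NCI-BL2171 shares its libraries with the other comparisons. There, 11 members were higher in RPMI-8226, 14 lower and 7 not past the threshold, where edgeR called 76.7% of all genes, 41.1% higher and 35.6% lower. The members' median was -0.19, beside 0.09 for all genes. The most abundant hosts were lower. SNHG29 was at -2.07 (edgeR adjusted p = 1.27e-17), with the level in TPM given above, and SNHG32 at -1.95 (adjusted p = 3.9e-17). GAS5, at -1.84 ± 0.21, ZFAS1 at -1.65 and SNHG16 at -1.79 were also lower. Among those higher in RPMI-8226, SNHG15 had log2 fold change 1.63 ± 0.10, edgeR adjusted p = 1.28e-10, SNHG9 1.14, SNHG7 1.02 and SNHG4 0.97. SNHG22 and SNHG28 had no count in the libraries labelled NCI-BL2171. SNHG22 had 14 and 19 in RPMI-8226, and SNHG28 had 4.73 and 24.9. SNHG11 was lower (log2 fold change -1.38 ± 0.20, edgeR adjusted p = 3.48e-06). Calls lost on leaving out 1 library were EPB41L4A-AS1 (without RPMI-8226 replicate 1, adjusted p = 0.0561), SNHG10 (without NCI-BL2171 replicate 1, 0.0919, or RPMI-8226 replicate 1, 0.0924) and SNHG20 (without NCI-BL2171 replicate 1, 0.180, or RPMI-8226 replicate 2, 0.244). Conversely, SNHG1 passed without either RPMI-8226-R library (-0.14, adjusted p = 0.0232 and 0.0244) and SNHG21 without NCI-BL2171 replicate 2 (-0.92, adjusted p = 0.0442).

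Between RPMI-8226-R and the libraries labelled NCI-BL2171, 19 members were lower in the resistant line, 9 higher and 4 not past the threshold, where edgeR called 77.4% of all genes, 39.2% higher and 38.2% lower. The members' median was -1.15, beside 0.00 for all genes. SNHG27 had 12 and 18 counts in the libraries labelled NCI-BL2171 and none in RPMI-8226-R. Among members with counts in every library, SNHG32 had the largest decrease (log2 fold change -3.76 ± 0.07, edgeR adjusted p = 3.16e-21), followed by ZFAS1 (-2.90), SNHG29 (-2.75), SNHG5 (-2.61) and SNHG33 (-2.57). SNHG17 was higher (log2 fold change 1.59 ± 0.08, edgeR adjusted p = 1.93e-13), as was DANCR (log2 fold change 0.69 ± 0.09, edgeR adjusted p = 2.94e-07). SNHG15 did not pass on counts (log2 fold change -0.22 ± 0.10, edgeR adjusted p = 0.0593) and was higher in TPM (0.87, limma adjusted p = 0.00133). Without NCI-BL2171 replicate 1 or RPMI-8226-R replicate 2 it passed as lower (-0.31, adjusted p = 0.0297, and -0.39, adjusted p = 0.000149). SNHG9 passed at 0.48 (adjusted p = 0.0375) and was lost without any 1 of the 4 libraries compared (0.0536 to 0.125). SNHG26, SNHG14 and SNHG30 each lost their call without at least 1 library, with adjusted p up to 0.311, 0.0654 and 0.0504.

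The deposited tables give each gene a length that can differ between libraries, as a mean over its transcripts weighted by abundance does. How it was computed is not stated in the sources used here. The length differed without overlap between RPMI-8226-R and RPMI-8226 for 19 of 32 members, against 34.3% of all genes tested. For 21 of 32 it differed between RPMI-8226 and the libraries labelled NCI-BL2171 (36.5% of all genes) and for 20 of 32 between RPMI-8226-R and those libraries (37.9%). Differences of at least 1.2-fold without overlap were found for 5, 4 and 4 members, against 13.7%, 14.9% and 16.8% of genes. SNHG16 had 2068 and 1890.0 bases in the libraries labelled NCI-BL2171, 1336 and 1311 bases in RPMI-8226 and 2172 and 2032 bases in RPMI-8226-R. Its parental libraries stood apart from the other 4. SNHG15 had 1994 and 1841 bases in the libraries labelled NCI-BL2171, 1356 and 1309 bases in RPMI-8226 and 968 and 1153 bases in RPMI-8226-R, a decrease from group to group. SNHG17 had 1519 and 1437 bases in the libraries labelled NCI-BL2171, 691 and 736 bases in RPMI-8226 and 655 and 700.0 bases in RPMI-8226-R, with both RPMI-8226 lines near each other and far from the first group. TPM values divide by the effective form of these lengths, and counts do not. ZFAS1 kept between 515 and 523 bases in all libraries, and SNHG19 had 557 bases in each.

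**Figure D5:**
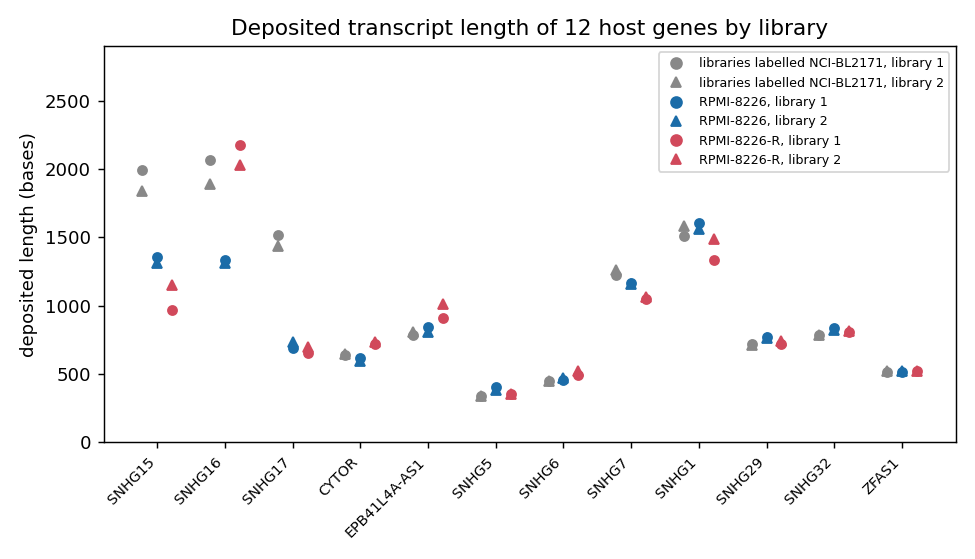
Deposited length in bases (y axis, from 0) of 12 members, with 1 point per library; colour gives the line and shape the library number. SNHG16 is shorter in RPMI-8226 than in the other groups, SNHG15 shortens from group to group, and ZFAS1 stays between 515 and 523 bases.

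Libraries of 1 line also differed in the host genes. Of 22 members with a mean of at least 10 CPM, 7 differed by at least 0.3 on the log2 CPM scale between the resistant libraries, and all 7 were higher in replicate 2 (8.03% of all genes differed so, 5.34% higher in replicate 2). They were SNHG10 (0.67), GAS5 (0.57), SNHG1 (0.43), SNHG19 (0.34), SNHG15 (0.33), SNHG20 (0.32) and SNHG3 (0.30). Only SNHG19 (0.54) differed so in RPMI-8226 (3.86% of all genes, 2.17% higher in replicate 2), and 0 of 22 in the libraries labelled NCI-BL2171 (4.92%, 2.33% higher in replicate 2).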

How the data were processed

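RNA depleted of ribosomal RNA was sequenced from 3 lines with 2 libraries each. Per the file headers, each deposited table gives by gene a length, an effective length, TPM and estimated counts (NumReads). The authors' estimated counts were rounded to whole numbers before every count test. Per the submitters' processing notes the genome was GRCh38.p13; the sources used here do not state quantifier, annotation or strand setting. Of 61544 rows, 46 chromosome Y copies were merged. Deposited TPM values were used for levels and, as log2(TPM + 1), in limma 3.58.1. Differences were tested with edgeR 4.0.16 (R 4.3.3; TMM, quasi-likelihood, Benjamini-Hochberg at 0.05) on all 6 libraries, after a filter of 10 counts with a total of 15, with 3 residual degrees of freedom and a biological coefficient of variation of 6.81%. In simulated data for the resistant line against its parent (19199 genes), 74.6% of 1.5-fold, 94.0% of 2-fold and 100% of 4-fold changes were recovered, with 6 of 185 calls false. Only 67, 67 and 66 genes were changed there, as many up as down, with the same spread for all genes. In the data 65.6% of genes were called, so these rates need not hold for them. Of the 34 members, 32 passed the filter; SNHG18 and SNHG25 did not. Members and lists were chosen with earlier results of these data known. Any member could be named, with values by library at a mean of 20 TPM in a line; list genes were the 3 largest rises and falls at 5 TPM, plus set genes. Alternatives were DESeq2 1.42.0, limma-voom, other scalings, filters and offsets, a replicate block and leaving out each library. Of the marker genes listed at the outset, 1 is not reported here.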

Additional observations from a re-analysis of the deposited data

How the results depend on the processing

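Members lower in RPMI-8226-R than in RPMI-8226 numbered 16 to 18 on leaving out 1 library (19 with all), and higher ones 3 to 5 (4 with all); for RPMI-8226 against the libraries labelled NCI-BL2171 the ranges were 12 to 15 lower and 10 to 11 higher, and for RPMI-8226-R against them 18 to 20 and 6 to 9. Higher members in RPMI-8226-R numbered 2 with log2(TPM + 1), log2(TPM + 0.1) or an offset for effective length. Under both TPM settings, TOP translation factors gave 6 higher and 7 lower, decay genes 2 lower, exosome genes 0 lower and ribosomal proteins 1 higher. Exosome genes gave 3 lower with the length offset, 2 without the filter, with protein-coding genes only, with the replicate block and with upper-quartile scaling (chosen after seeing the data), and 1 to 2 on leaving out 1 library. snoRNP genes gave 3 lower with protein-coding genes only or upper-quartile scaling and 0 to 2 on leaving out 1 library; control RNAs gave 0 to 1 lower. MIR4435-2HG passed as lower with the length offset (-0.40). Where the main or the alternative fit passed the threshold, signs turned for SNHG16 (-0.18, length offset), FBL (0.23 under both TPM settings), DIS3 (0.059 and 0.063), TRAF7 (0.19 and 0.20) and SNHG15 against the libraries labelled NCI-BL2171 (0.87, 0.89 and, with the offset, 0.76). The cause was not tested. Of the other alternative values for single genes, 2158 kept the call, 92 lost it and 47 gained it. The 2158 include values whose sign turned with neither fit past the threshold, as for GAS5 between the RPMI-8226 lines (0.07 with log2(TPM + 1)).

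Replicate numbers in the labels name no shared source, and deviations of same-numbered libraries correlated at 0.06, 0.21 and 0.06 over 5298 genes. With the replicate block, 5 members were higher and 18 lower in RPMI-8226-R than in RPMI-8226, 11 and 14 in RPMI-8226 than in the libraries labelled NCI-BL2171, and 9 and 20 in RPMI-8226-R than in those. With 2 libraries a line and few counts, differences in the low members could be missed, although some of these members were called. Nearly all nested snoRNAs were too low to test.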
